A study of Oryza sativa with 9 samples.

Results

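Seeds of a rice line complemented with wild type OsTudor-SN were compared with wild type seeds to see which transcripts still differed. The complemented line, pHL8042/EM1084, is a transgenic of the mutant EM1084 that received wild type OsTSN and still carries the mutant gene. EM1084, set beside both where needed, has the Tudor-SN change E503K and no transgene. Each of the 3 genotypes had 3 biological repeats of whole dehulled seeds, 10 to 14 days after flowering, from plants kept in growth chambers at 27 °C on equal 12 h spells of light and dark. Libraries were made with the ScriptSeq v2 kit from total RNA. Levels are RPKM as the authors deposited them, a read number scaled by transcript length and library total. A locus entered the comparison with at least 1 RPKM in at least 3 of the 6 complemented and wild type libraries, which held for 13751 of 31263 loci. The third highest of the 6 values was 1.00022 RPKM for the locus just inside this limit and 0.998569 RPKM for the locus just outside it. Of the loci that entered, 1893 had no wild type library at 1 RPKM and 111 had no complemented library there, so such loci entered through the high values of a single line, and 9275 reached it in all 6 libraries. One transgenic line was profiled, the sources used here do not give the promoter of its transgene, and a seed holds endosperm, aleurone and embryo together. In such bulk RNA, fewer cells of a type and less RNA per cell cannot be told apart.

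Tudor-SN is a conserved RNA-binding protein with staphylococcal nuclease-like domains and a Tudor domain. In developing rice endosperm it belongs to the particles that carry storage protein RNAs to the endoplasmic reticulum (ER). Prolamin RNAs are carried to the ER that surrounds prolamin bodies and glutelin RNAs to the cisternal ER, from which glutelins travel to protein storage vacuoles. The RNAs of such cargo, the ER folding machinery, and the starch and sugar genes that fill the same cells are therefore described first.

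OsTudor-SN itself (LOC_Os02g32350, chromosome 2, 19098854 to 19105533, minus strand) had 348, 367 and 389 RPKM in the complemented libraries, 206, 212 and 221 RPKM in EM1084, and 91.1, 97.6 and 88.4 RPKM in wild type. The 3 complemented libraries lay above all others, and those of EM1084 lay between them and wild type. The complemented level was 3.99-fold that of wild type (log2 fold change 1.98, SE 0.08, limma adjusted p = 2.8e-10). After median-of-ratios scaling, which divides each library by its typical ratio to all libraries over many loci, the difference was 1.03 (SE 0.06, limma adjusted p = 4e-08). On that scale the means were 319 in the complemented line, 139 in EM1084 and 156 in wild type, so that EM1084 lay below wild type (-0.17, limma adjusted p = 0.02). Transcript of the transgene and of the mutant gene cannot be told apart in the table. Log2 fold changes here are complemented minus wild type on log2(RPKM + 1), which understates changes of low loci, and a locus is called at an adjusted p under 0.05.

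Mapped reads numbered 17022681 to 18449248 in the complemented libraries, 12805472 to 15630870 in EM1084 and 5778627 to 10551055 in wild type, and 91.7% to 94.0% of them fell in listed loci. For a 1 kb transcript 1 read equalled 0.0542 to 0.173 RPKM, least in the complemented line. Depth thus differed between the complemented line and wild type without overlap, and every library was therefore also thinned at random to the 5778627 reads of the shallowest. Before thinning, 13974, 14354 and 14454 loci reached 1 RPKM in the complemented libraries, against 11005, 10978 and 10732 in wild type. After thinning, these numbers were 14026, 14373 and 14491 in the complemented libraries and 11002, 11040 and 10732 in wild type. The complemented seeds thus had more loci above 1 RPKM at equal depth as well. EM1084 had 15076 to 15161 such loci before thinning. Wild type reads were more concentrated. The 100 most abundant loci took 59.7% to 63.4% of the reads in listed loci in the complemented line, 47.9% to 49.0% in EM1084 and 75.1% to 77.0% in wild type.

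Most loci were called different from wild type. On RPKM as deposited, 11315 of 13751 loci (82.3%) were called by limma, 10207 of them higher in the complemented line (74.2%) and 1108 lower (8.06%). Scaled by median of ratios, 8076 loci were called (58.7%), with 4303 higher (31.3%) and 3773 lower (27.4%). These counts hold loci that entered through the high values of a single line. Of the 11747 loci with a library at 1 RPKM in each line, 8322 were higher (70.8%) and 999 lower (8.5%) as deposited. After scaling, 2914 of these were higher (24.8%) and 3662 lower (31.2%), so the balance after scaling turned towards lower. The median log2 fold change over all loci was 0.79 on RPKM as deposited and 0.09 after scaling, which shifts abundant loci by -0.96. With library sizes taken from reads outside the storage protein lists, 9938 loci were called (72.3%), 8226 higher (59.8%) and 1712 lower (12.5%). The 4303 loci higher under both scalings and the 1108 lower under both make up 39.3% of those tested. The scaling lowers the complemented line relative to wild type, so calls could turn only towards lower, and 936 loci called higher as deposited were called lower after scaling. The scaling thus sets the direction for moderate differences. Both values are given below for many lists and genes, and a value printed without a named scaling is on RPKM as deposited. Differences of at least 2-fold were called for 5003 higher and 379 lower loci as deposited and for 1426 higher and 1463 lower loci after scaling. As deposited, all complemented libraries lay above all wild type libraries at 10047 loci (73.1%) and below them at 1123 (8.17%).

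The most abundant loci were mostly lower, whereas low ones were mostly higher as deposited. Of the 56 loci with a mean of at least 1000 RPKM, 13 were higher and 35 lower in the complemented line as deposited, and 2 were higher and 51 lower after scaling. Of the 281 loci from 100 to 1000 RPKM, 153 were higher and 87 lower as deposited, and 77 were higher and 175 lower after scaling. Of the 9882 loci under 10 RPKM, 7540 were higher and 518 lower as deposited, and 3318 were higher and 1903 lower after scaling. Low loci could enter through the high values of a single line. With at least 1 library at 1 RPKM required in each line, 7892 loci were left under 10 RPKM, of which 5667 were higher and 411 lower as deposited, and 1941 were higher and 1794 lower after scaling. The 56 loci of at least 1000 RPKM all met that requirement. The plot of mean levels sets the loci of seed storage proteins against the rest.

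**Figure D1:**
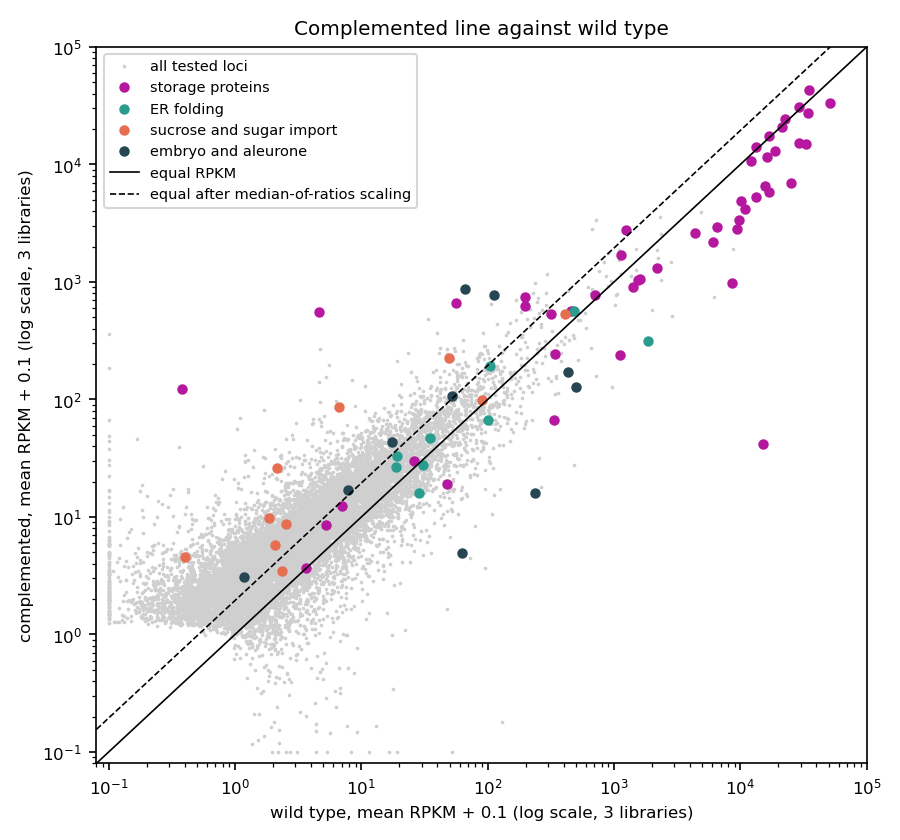
Mean RPKM + 0.1 of each of the 13751 loci in the complemented line (vertical, log scale) against wild type (horizontal, log scale), means of 3 libraries each. The solid line marks equal RPKM and the dashed line equal levels after median-of-ratios scaling. Most storage protein loci lie on or below the solid line, while most loci under 10 RPKM lie above it.

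EM1084 was used to sort what still differed, as a description, since its difference from wild type shares the wild type libraries with the one described. EM1084 itself was higher than wild type at 81.8% of the same loci and lower at 5.96% as deposited, and higher at 30.7% and lower at 29.2% after scaling. Of the 10207 loci higher in the complemented line as deposited, 9502 were also called higher in EM1084, 596 were not called in EM1084, and 109 were lower in EM1084, so that the complemented line had passed wild type to the other side. Of the 1108 lower loci, 529 were also lower in EM1084, 311 were not called there, and 268 were higher in EM1084. After scaling, 2845 of 4303 higher loci and 2859 of 3773 lower loci lay on the side of EM1084, and 208 and 178 on the opposite side. Under both scalings, 22 higher and 27 lower loci lay opposite to EM1084. A larger set lay beyond both other lines: 822 loci were called higher, and 405 lower, than wild type and than EM1084 under both scalings. In the other direction, 1653 loci as deposited and 2157 after scaling differed between EM1084 and wild type but were not called between the complemented line and wild type.

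**Figure D2:**
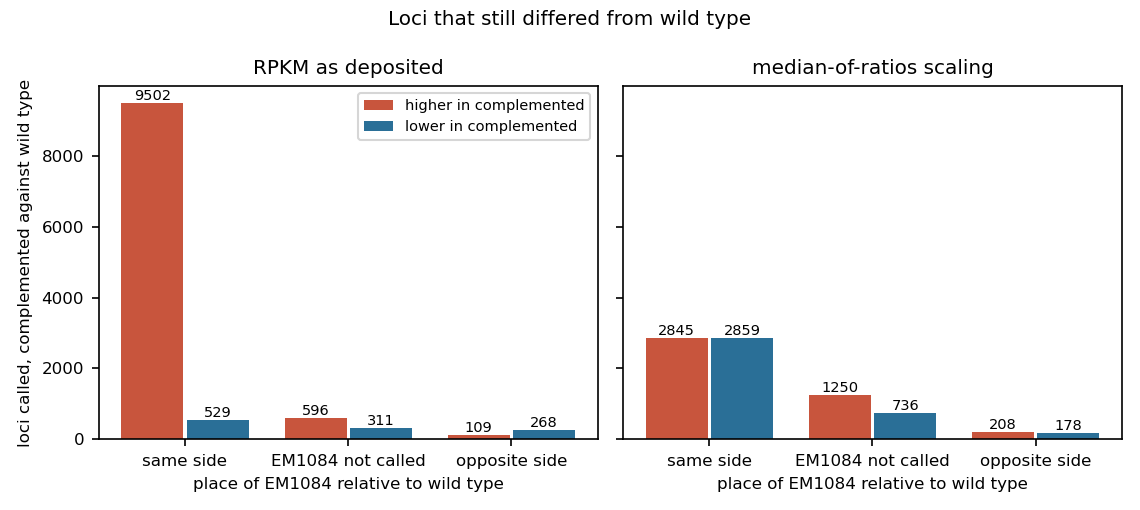
Number of loci called between the complemented line and wild type (vertical axis), split by where EM1084 lay relative to wild type, for RPKM as deposited (left) and after median-of-ratios scaling (right). Bars are counts without error, red for loci higher and blue for loci lower in the complemented line; most called loci lie on the side of EM1084, 9502 higher and 529 lower as deposited.

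Storage protein transcripts took a smaller share of the complemented seed's reads than of wild type's, and the deficit lay mainly in prolamins and in globulins with albumins. The 48 loci of these lists took 50.7%, 47.8% and 45.9% of reads in listed loci in the complemented line, 34.5%, 35% and 34.2% in EM1084, and 61.1%, 62.3% and 57.8% in wild type. The complemented libraries lay between the others without overlap. Their mean of 48.1% ± 2.4 compares with 60.4% ± 2.4 in wild type (SD, n = 3 each; two-sided exact permutation p = 0.1, the smallest that 3 against 3 allows). Glutelins took 36.6% ± 1.7 in the complemented line and 37.7% ± 2.1 in wild type, with overlapping groups (exact permutation p = 0.5, n = 3 each). Prolamins took 8.45% ± 0.82 in the complemented line and 17.2% ± 0.1 in wild type, and globulins with albumins 3.07% ± 0.13 in the complemented line and 5.48% ± 0.28 in wild type (both exact permutation p = 0.1, n = 3 each).

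**Figure D3:**
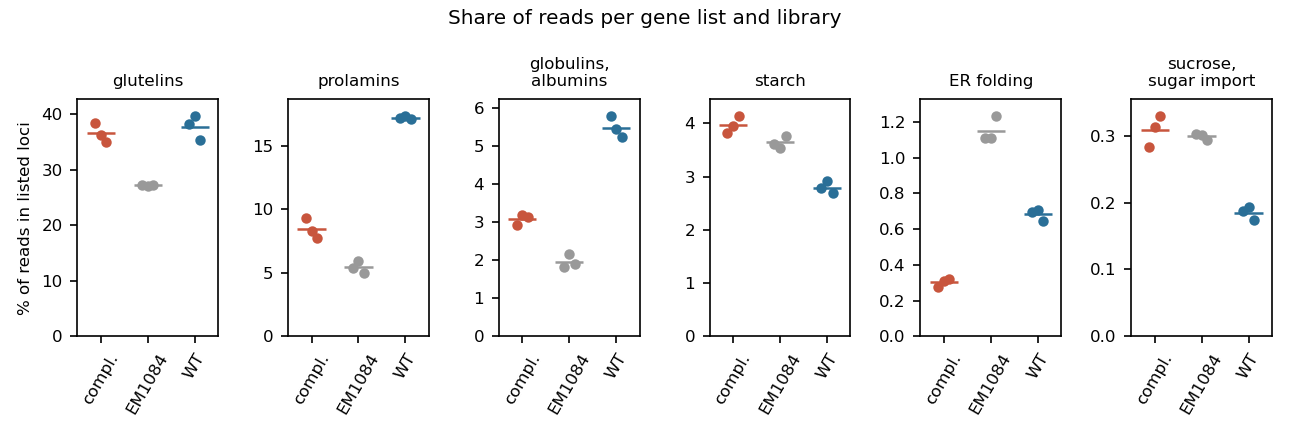
Percent of reads in listed loci taken by 6 gene lists in each library (points) with the mean of 3 libraries (line), for the complemented line, EM1084 and wild type; each panel has its own axis from 0. The complemented and wild type points overlap for glutelins (36.6% and 37.7%), whereas the prolamin share was 8.45% in the complemented line and 17.2% in wild type.

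Glutelins, which make up most of the protein of a rice grain, had the list median nearest to 0 of the storage groups in RPKM. Of 12 loci tested, 2 were higher and 6 lower in the complemented line as deposited, where 74.2% and 8.06% of all loci were. After scaling all 12 were lower, against 27.4% of all loci. The list medians were -0.13 and -1.10 against 0.79 and 0.09 over all loci. GluA1 (LOC_Os01g55690), the most abundant of them over the 6 libraries, had 45326, 41240 and 41788 RPKM in the complemented line, 15278, 15644 and 15316 RPKM in EM1084, and 35752, 36419 and 32536 RPKM in wild type. The complemented libraries stood highest of all in RPKM, above wild type by 1.23-fold (log2 fold change 0.29, SE 0.06, limma adjusted p = 8e-04), yet the difference was -0.67 after scaling (limma adjusted p = 8.1e-06). Glutelin locus LOC_Os02g15090 had 3007, 2926 and 2897 RPKM in the complemented line, 3147, 3032 and 3139 RPKM in EM1084, and 6532, 6834 and 6152 RPKM in wild type. As deposited it was 2.21-fold below wild type (log2 fold change -1.14, SE 0.06, limma adjusted p = 5.9e-09) and not called against EM1084 (-0.08, limma adjusted p = 0.32). After scaling it was below wild type by -2.11 (limma adjusted p = 4.2e-10) and above EM1084 by 0.34 (limma adjusted p = 0.0011). By contrast LOC_Os02g14600 had 1157, 1006 and 1033 RPKM in the complemented line, 3419, 3353 and 3709 RPKM in EM1084, and 1636, 1721 and 1505 RPKM in wild type. Its complemented libraries lay below both other groups, at -0.61 as deposited (limma adjusted p = 1.3e-05) and -1.57 after scaling (limma adjusted p = 3.8e-08). The abundant LOC_Os02g15169 was also lower, with 28397, 28471 and 26125 RPKM in the complemented line and 34758, 36932 and 31678 RPKM in wild type (-0.31, limma adjusted p = 0.0011). How the authors counted reads that suit several near-identical copies is not given, so the split among members of the glutelin, prolamin and albumin families is uncertain.

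Prolamins, the alcohol-soluble storage proteins kept in ER-derived bodies, were mostly lower than wild type. Of 25 loci tested, 5 were higher and 16 lower as deposited, where 74.2% and 8.06% of all loci were. After scaling 2 were higher and 19 lower, against 31.3% and 27.4% of all loci. The list medians were -0.66 and -1.62. On RPKM as deposited, 15 of the 16 lower loci were lower in EM1084 too. Locus LOC_Os07g11910 on chromosome 7 had 7114, 7238 and 6357 RPKM in the complemented line, 9678, 11427 and 9172 RPKM in EM1084, and 24465, 25455 and 25769 RPKM in wild type. As deposited it was 3.65-fold below wild type (log2 fold change -1.87, SE 0.08, limma adjusted p = 8.5e-10), and on that scale its libraries lay below EM1084 as well. After scaling the difference from wild type ranged from -2.9 to -2.74 with 1 library left out. The most abundant prolamin, LOC_Os05g26386, is listed on chromosome 5 from 15338155 to 15338822, nearly the stretch of LOC_Os05g26377, listed from 15338152 to 15338822 on the same strand. Their RPKM summed to 42771, 30960 and 25622 in the complemented line, 19904, 22405 and 17418 in EM1084, and 65335, 69284 and 65826 in wild type. All complemented sums lay below all wild type sums. The split between both loci differed among the libraries: LOC_Os05g26377 had 49.1, 25.4 and 50.9 RPKM in the complemented line, 38.8, 21.7 and 26.8 RPKM in EM1084, and 20401, 23359 and 1694 RPKM in wild type. Its log2 fold change of -7.83 (limma adjusted p = 0.00041), which is -9.06 without wild type replicate 3 and -7.17 without wild type replicate 2, is thus not a value for 1 gene alone.

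A pair of prolamin loci, the 2 of the list called higher under both scalings, stood at their highest in the complemented line. LOC_Os05g26440 (chromosome 5, 15372629 to 15373075) had 637, 669 and 683 RPKM in the complemented line, 202, 185 and 182 RPKM in EM1084, and 64.9, 54.4 and 48 RPKM in wild type. The complemented line was highest, 11.9-fold above wild type (log2 fold change 3.56, SE 0.1, limma adjusted p = 1.5e-11), and stayed so after scaling (2.61, limma adjusted p = 1.2e-09). LOC_Os06g31060 (chromosome 6, 18065898 to 18067784) had 123, 117 and 128 RPKM in the complemented line, 50.4, 57.3 and 48.8 RPKM in EM1084, and 0, 0.32 and 0.512 RPKM in wild type, where those values are 0, 2 and 2 reads. It entered the comparison through the complemented line alone, so it had to differ, and its values are a description. The near-empty wild type gives no usable fold.

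Globulins and RAG-type albumins, a cluster of seed allergens related to alpha-amylase and trypsin inhibitors, changed in both directions. Of 11 loci tested, 4 were higher and 6 lower as deposited, where 74.2% and 8.06% of all loci were. After scaling 3 were higher and 8 lower, against 31.3% and 27.4% of all loci. The medians were -0.65 and -1.61. RAG1 (LOC_Os07g11360, chromosome 7, 6254861 to 6255627) had 557, 563 and 540 RPKM in the complemented line, 260, 291 and 276 RPKM in EM1084, and 5.07, 5.36 and 3.16 RPKM in wild type. The complemented line was again highest, 122-fold above wild type (log2 fold change 6.67, SE 0.13, limma adjusted p = 5e-13; 5.83 after scaling, limma adjusted p = 6.9e-11). RAG2 (LOC_Os07g11380), which starts at 6258913 on the same chromosome, had 3339, 3346 and 3449 RPKM in the complemented line, 1368, 1623 and 1452 RPKM in EM1084, and 10336, 9786 and 9005 RPKM in wild type. It went the other way, 2.87-fold below wild type (log2 fold change -1.52, SE 0.08, limma adjusted p = 2.7e-09). LOC_Os07g11410 of the same cluster had 1208, 876 and 867 RPKM in the complemented line, 465, 556 and 451 RPKM in EM1084, and 9023, 8818 and 8052 RPKM in wild type. It was 8.77-fold below wild type, the strongest fall of the list (log2 fold change -3.15, SE 0.12, limma adjusted p = 2.7e-10). For RAG2 and LOC_Os07g11410 the complemented line lay between EM1084 and wild type, nearer to EM1084. Alpha-globulin (LOC_Os05g41970), the main globulin, had 13562, 14170 and 14435 RPKM in the complemented line and 13912, 13594 and 12409 RPKM in wild type. Its groups overlapped as deposited (0.08, limma adjusted p = 0.35), and it was lower after scaling (-0.88, limma adjusted p = 7.1e-07). A pair of globulin-type loci on chromosome 3 was higher under both scalings. LOC_Os03g46100 had 710, 789 and 750 RPKM in the complemented line, 565, 625 and 676 RPKM in EM1084, and 213, 198 and 181 RPKM in wild type. LOC_Os03g57960 had 476, 719 and 683 RPKM in the complemented line and 216, 193 and 181 RPKM in wild type. Both sets of complemented libraries lay above wild type, as at 73.1% of all loci. Their means were 3.80-fold and 3.18-fold those of wild type.

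ER folding genes fold and cross-link the storage proteins as they enter the ER, and the list's share of reads was lowest in the complemented line, through its most abundant member BiP1. The list took 0.278%, 0.311% and 0.320% of reads in listed loci in the complemented line, 1.11%, 1.11% and 1.23% in EM1084, and 0.696%, 0.708% and 0.646% in wild type (complemented against wild type, exact permutation p = 0.1, n = 3 each). No 2 groups overlapped. Without BiP1 the list took 0.203%, 0.224% and 0.233% in the complemented line, 0.681%, 0.683% and 0.759% in EM1084, and 0.190%, 0.197% and 0.179% in wild type, so the rest of the list had a share above that of wild type. BiP1 (LOC_Os02g02410, chromosome 2, 838717 to 842672), the main Hsp70 chaperone of the ER lumen, had 280, 327 and 331 RPKM in the complemented line, 1577, 1568 and 1765 RPKM in EM1084, and 1916, 1939 and 1745 RPKM in wild type. The complemented libraries alone were low, 5.97-fold below wild type (log2 fold change -2.58, SE 0.09, limma adjusted p = 7e-11; -3.54 after scaling, limma adjusted p = 6.4e-12). EM1084 was itself called below wild type, at -0.19 as deposited and -1.57 after scaling.

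The ER Hsp90 GRP94 and the lectin chaperone calnexin (CNX) also fell below wild type, although they were higher in EM1084 than in wild type as deposited. GRP94 had 14.2, 16.2 and 17.3 RPKM in the complemented line, 70.1, 62.1 and 71.7 RPKM in EM1084, and 28.5, 31.5 and 25.9 RPKM in wild type. CNX had 65.6, 67.5 and 67.7 RPKM in the complemented line, 245, 238 and 261 RPKM in EM1084, and 97.5, 108 and 95.1 RPKM in wild type. Complemented libraries of both genes lay below every wild type library, as at 8.17% of all loci. The differences were -0.81 for GRP94 (limma adjusted p = 1.4e-05) and -0.57 for CNX (limma adjusted p = 2.2e-05). Of 9 tested members, 5 were higher and 3 lower as deposited, where 74.2% and 8.06% of all loci were. After scaling 0 were higher and 7 lower, against 31.3% and 27.4% of all loci. The direction of the list beyond BiP1, GRP94 and CNX thus flips with scaling. Calreticulin (CRT), a relative of calnexin, had 24.6, 31.5 and 27.5 RPKM in the complemented line and 31.7, 30.5 and 29.3 RPKM in wild type and was not called as deposited (-0.13, limma adjusted p = 0.3). PDIL1-1, the disulfide isomerase that acts on proglutelin, had 515, 569 and 600 RPKM in the complemented line, 1958, 1956 and 2241 RPKM in EM1084, and 499, 500 and 461 RPKM in wild type. It lay just above wild type as deposited (0.20, limma adjusted p = 0.036), a call lost without complemented replicate 2 or 3 or any wild type replicate (0.15 to 0.22), and below it after scaling (-0.76, limma adjusted p = 1e-06). The related isomerase PDIL1-4 was higher as deposited, with 173, 204 and 204 RPKM in the complemented line and 104, 115 and 95.5 RPKM in wild type (0.88, limma adjusted p = 1.5e-06), and was not called after scaling (-0.08). ERO1, the oxidase that recharges these isomerases, did likewise (0.75 as deposited; -0.17 after scaling, limma adjusted p = 0.08).

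Among the factors that signal ER stress, bZIP50, whose RNA is spliced by the ER sensor IRE1, had 23.8, 30.7 and 35.9 RPKM in the complemented line, 141, 135 and 174 RPKM in EM1084, and 42.3, 39.6 and 38.8 RPKM in wild type. Complemented libraries were lowest and EM1084 libraries highest, without overlap. The gene was below wild type by -0.42 as deposited (SE 0.14, limma adjusted p = 0.011) and -1.37 after scaling (limma adjusted p = 1.5e-06). Of the 155 listed loci tested, bZIP50 was the single one that lay opposite to EM1084 under both scalings. The membrane-bound factors bZIP39 and bZIP60 were higher as deposited (0.92, limma adjusted p = 0.00049, and 0.69, limma adjusted p = 9.5e-05) and not called after scaling (0.15 and -0.23). For bZIP60 the values were 21.9, 23.4 and 23.4 RPKM in the complemented line and 16.3, 14.1 and 11.5 RPKM in wild type.

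**Figure D4:**
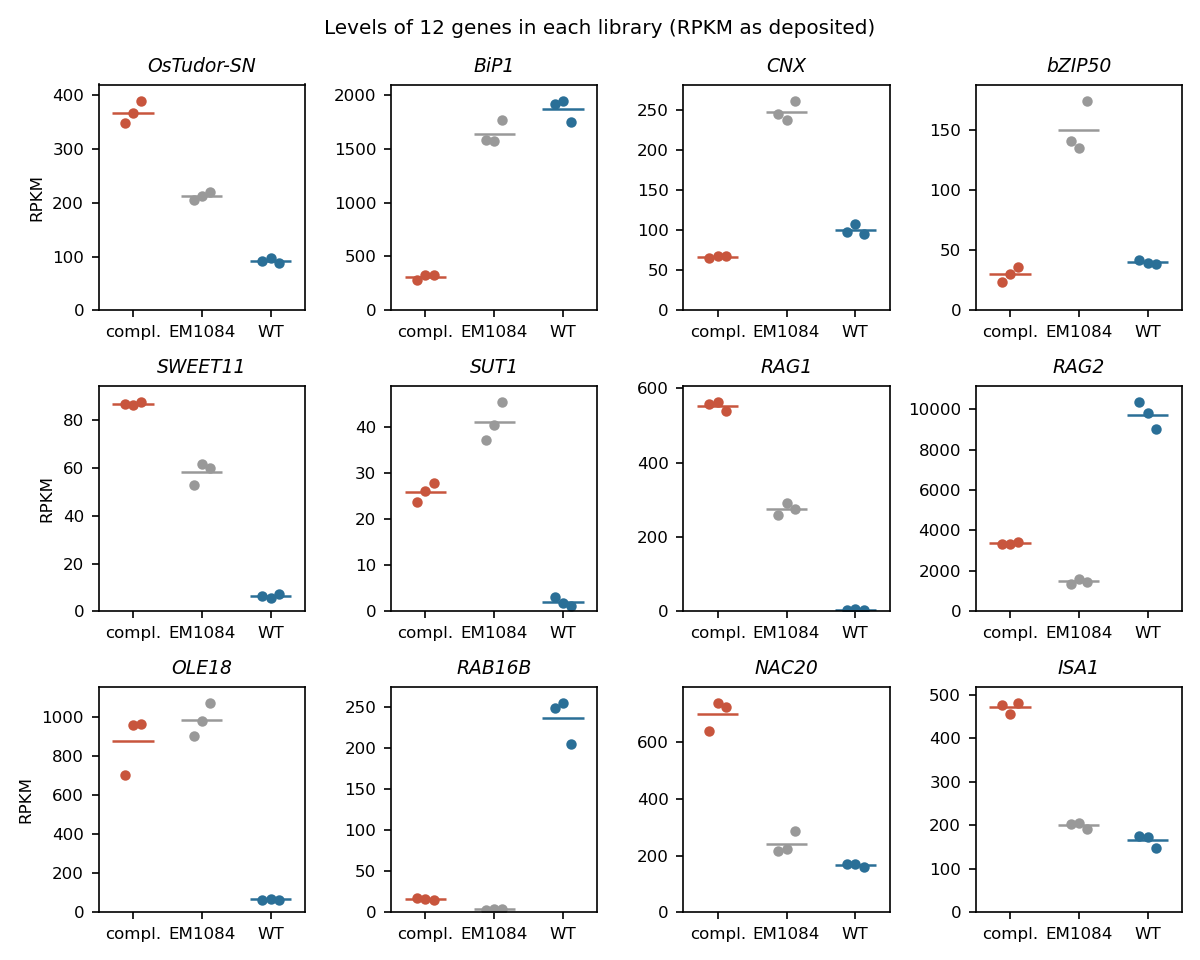
RPKM as deposited of 12 genes in each library (points) with the mean of 3 libraries (line), for the complemented line, EM1084 and wild type; each panel has its own axis from 0. BiP1, CNX and bZIP50 were lowest in the complemented line, OsTudor-SN, SWEET11, RAG1, NAC20 and ISA1 highest, and SUT1 and OLE18 were low in wild type alone.

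Endosperm transcription factors were higher or not called as deposited. Of 6 tested, 5 were higher and 0 lower as deposited, where 74.2% and 8.06% of all loci were. After scaling 3 were higher and 1 lower, against 31.3% and 27.4% of all loci. The medians were 1.38 and 0.42 against 0.79 and 0.09 over all loci. NAC20 (LOC_Os01g01470), an activator of starch and storage protein genes, had 639, 738 and 724 RPKM in the complemented line, 215, 223 and 286 RPKM in EM1084, and 171, 172 and 159 RPKM in wild type. It stood 4.19-fold above wild type (log2 fold change 2.06, SE 0.11, limma adjusted p = 2.9e-09; 1.10 after scaling, limma adjusted p = 1.4e-06). NF-YC12 (LOC_Os10g11580), a subunit of an endosperm nuclear factor Y complex, had 752, 795 and 847 RPKM in the complemented line, 474, 459 and 453 RPKM in EM1084, and 227, 238 and 216 RPKM in wild type. Complemented libraries were again highest (1.81, limma adjusted p = 4.3e-10; 0.85 after scaling, limma adjusted p = 1.1e-07). NF-YB1, its partner subunit known to act on sucrose transporter genes, had 30.4, 30.3 and 36.4 RPKM in the complemented line, 56.5, 59.7 and 58.4 RPKM in EM1084, and 7.22, 4.55 and 4.33 RPKM in wild type. It lay between both others and was still 6.03-fold above wild type (2.41, limma adjusted p = 1.3e-08).

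Of the sucrose and sugar import genes, 7 of 10 tested were higher in the complemented line under both scalings, where 31.3% of all loci were. As deposited 9 were higher and 0 lower, where 74.2% and 8.06% of all loci were. After scaling 7 were higher and 2 lower, against 31.3% and 27.4% of all loci. The medians were 1.72 and 0.98 against 0.79 and 0.09 over all loci. SWEET11 (LOC_Os08g42350), a sugar exporter that feeds the developing grain, had 86.9, 86.4 and 87.5 RPKM in the complemented line, 52.9, 61.5 and 60 RPKM in EM1084, and 6.46, 5.71 and 7.38 RPKM in wild type. All complemented libraries were above EM1084 and wild type, 13.3-fold above the wild type mean (log2 fold change 3.55, SE 0.1, limma adjusted p = 1.7e-11; 2.67 after scaling, limma adjusted p = 4.7e-09). SUT1, a sucrose carrier, had 23.8, 26.1 and 27.8 RPKM in the complemented line, 37.2, 40.4 and 45.3 RPKM in EM1084, and 3.06, 1.83 and 1.26 RPKM in wild type. The complemented level lay between the others, 12.6-fold above wild type (3.18, limma adjusted p = 5e-09). The related exporter SWEET15 had 4.92, 4.36 and 4.01 RPKM in the complemented line and 0.242, 0 and 0.663 RPKM in wild type. It entered through the complemented line alone, so it had to differ, and it is 1 of the 7. SWEET4, a hexose carrier, was 5.53-fold higher. SUS3, a sucrose synthase that splits sucrose for starch synthesis, had 214, 230 and 229 RPKM in the complemented line, 195, 187 and 175 RPKM in EM1084, and 50.2, 49 and 47.6 RPKM in wild type. Its groups did not overlap, with complemented libraries above wild type as at 73.1% of all loci (2.17, limma adjusted p = 1.4e-10, and 1.22 after scaling, limma adjusted p = 3.4e-08). SUS4, the most abundant member, was higher as deposited (0.39, limma adjusted p = 0.00089) and lower after scaling (-0.57, limma adjusted p = 6e-06), with 483, 543 and 584 RPKM in the complemented line and 416, 435 and 373 RPKM in wild type.

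Starch synthesis genes took 3.97% ± 0.16 of reads in listed loci in the complemented line, 3.64% ± 0.12 in EM1084 and 2.79% ± 0.11 in wild type (SD, n = 3 each; complemented against wild type, exact permutation p = 0.1). Of 21 tested, 17 were higher and 2 lower as deposited, where 74.2% and 8.06% of all loci were. After scaling 4 were higher and 13 lower, against 31.3% and 27.4% of all loci, so their direction flips with scaling. Their medians were 0.47 and -0.46. Higher under both scalings were AGPS1, ISA1, BEIIa and ISA3. ISA1 (LOC_Os08g40930), the debranching enzyme that shapes amylopectin, had 476, 457 and 481 RPKM in the complemented line, 204, 205 and 192 RPKM in EM1084, and 176, 173 and 149 RPKM in wild type. Its complemented libraries stood alone at the top (log2 fold change 1.5, SE 0.08, limma adjusted p = 4.4e-09; 0.54 after scaling, limma adjusted p = 3.9e-05). AGPS1, a small subunit of ADP-glucose pyrophosphorylase, had 164, 157 and 157 RPKM in the complemented line, 126, 133 and 126 RPKM in EM1084, and 51.9, 59.5 and 59.2 RPKM in wild type (1.47, limma adjusted p = 5.4e-09). BEIIa, a branching enzyme, was 4.70-fold above wild type at low levels, with 12.2, 13.6 and 15.5 RPKM in the complemented line and 2.32, 4.27 and 2.19 RPKM in wild type.

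The other starch genes were mostly lower after scaling, and some were not called. The branching enzyme BEI had 1774, 1718 and 1830 RPKM in the complemented line, 896, 823 and 901 RPKM in EM1084, and 892, 964 and 849 RPKM in wild type. It was higher as deposited (0.98, limma adjusted p = 7.9e-08) but not called after scaling (0.01, limma adjusted p = 0.87). The starch phosphorylase PHO1 gave 1.09 as deposited (limma adjusted p = 2.2e-08) and 0.13 after scaling (limma adjusted p = 0.11). GBSSI, the amylose synthase, was higher as deposited (0.47, limma adjusted p = 1e-04) and lower after scaling (-0.49, limma adjusted p = 0.00022). AGPS2, the most abundant member, was not called as deposited, with 2387, 2622 and 2685 RPKM in the complemented line and 2377, 2487 and 2226 RPKM in wild type, and was lower after scaling (-0.85, limma adjusted p = 1.2e-07). AGPL1, a large subunit of the same enzyme, had 78.4, 90.1 and 101 RPKM in the complemented line, 19.4, 18.1 and 19.8 RPKM in EM1084, and 70.2, 76.6 and 73.1 RPKM in wild type. The complemented libraries passed wild type on the far side from EM1084 as deposited (0.28, limma adjusted p = 0.019; lost without complemented replicate 2 or 3 or wild type replicate 1, at 0.20 to 0.28), though not after scaling (-0.67, limma adjusted p = 2e-05). BT1, which imports ADP-glucose into amyloplasts, was lower under both scalings, with 1649, 1604 and 1539 RPKM in the complemented line and 2110, 2321 and 2279 RPKM in wild type (-0.48, limma adjusted p = 0.0032). The floury endosperm gene FLO2 was lower as well, with 145, 148 and 153 RPKM in the complemented line, 222, 217 and 216 RPKM in EM1084, and 239, 255 and 230 RPKM in wild type (-0.69, limma adjusted p = 1.7e-06). PPDKB, a pyruvate phosphate dikinase, was higher, with 536, 578 and 615 RPKM in the complemented line and 271, 273 and 257 RPKM in wild type (1.10, limma adjusted p = 4.4e-08), but its difference after scaling was 0.14 (limma adjusted p = 0.049), and that call was lost without any 1 complemented or wild type library or EM1084 replicate 1 (0.13 to 0.15), with no filter on low values, after thinning, and with the replicate number as a block (0.14, limma adjusted p = 0.064).

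**Figure D5:**
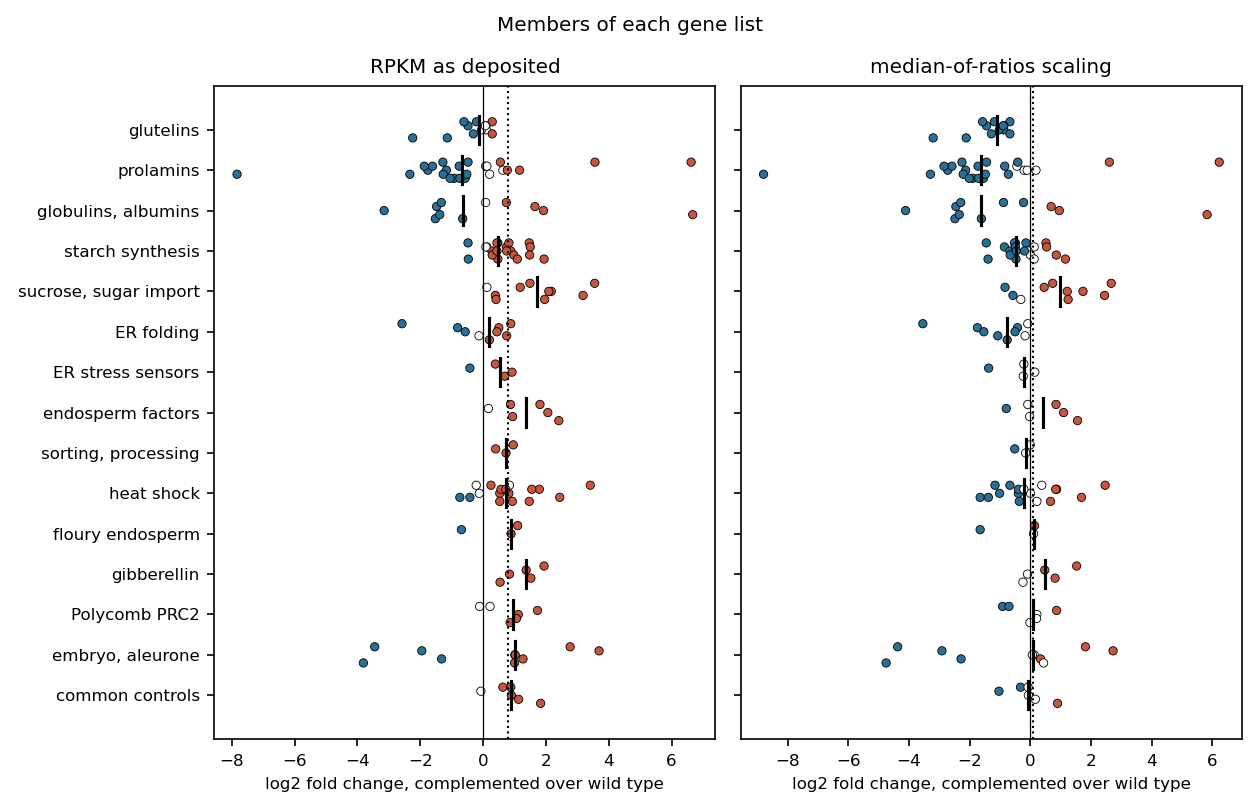
Log2 fold change, complemented over wild type, of each tested member of 15 gene lists, for RPKM as deposited (left) and after median-of-ratios scaling (right). Red points were called higher, blue lower and white not called; thick bars are list medians, solid lines mark 0 and dotted lines the median of all loci (0.79 and 0.09). Prolamins lie mostly to the left and sucrose and sugar import genes mostly to the right in both panels.

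Glutelin sorting and processing genes were higher as deposited, all 3 of 3, where 74.2% of all loci were. After scaling 0 were higher and 1 lower, against 31.3% and 27.4% of all loci. Their deposited median of 0.73 was near the 0.79 of all loci. VPE1, the vacuolar enzyme that cleaves proglutelin, had 213, 257 and 275 RPKM in the complemented line, 97.6, 94.2 and 109 RPKM in EM1084, and 130, 129 and 120 RPKM in wild type. Complemented libraries were highest (0.96, limma adjusted p = 1.5e-06), with no difference called after scaling (limma adjusted p = 0.99). VPS9A, the exchange factor of the RAB5A traffic step, had 12.6, 13.1 and 13.6 RPKM in the complemented line and 7.76, 8.17 and 6.62 RPKM in wild type (0.73, limma adjusted p = 3.6e-05; -0.15 after scaling, limma adjusted p = 0.19).

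Embryo and aleurone markers split into opposite sets. Their 11 loci took 0.222% ± 0.025 of reads in listed loci in the complemented line, 0.198% ± 0.017 in EM1084 and 0.158% ± 0.0082 in wild type (SD, n = 3 each; complemented against wild type, exact permutation p = 0.1). Their RPKM summed to 1861 to 2310 in the complemented line, 1714 to 2032 in EM1084 and 1397 to 1531 in wild type, and none of the 11 was at 0 in all libraries of a line. Of 10 tested, 6 were higher and 4 lower as deposited, where 74.2% and 8.06% of all loci were. After scaling 3 were higher and 4 lower, against 31.3% and 27.4% of all loci. OLE18, an oleosin of lipid bodies, had 704, 961 and 964 RPKM in the complemented line, 904, 982 and 1071 RPKM in EM1084, and 64.3, 69.7 and 65.4 RPKM in wild type. The complemented and EM1084 libraries overlapped, far above wild type (13.2-fold; log2 fold change 3.69, SE 0.11, limma adjusted p = 3.7e-11; 2.73 after scaling, limma adjusted p = 1e-09). The other oleosin, OLE16, had 664, 814 and 865 RPKM in the complemented line, 541, 726 and 662 RPKM in EM1084, and 120, 102 and 117 RPKM in wild type (2.77, limma adjusted p = 7.3e-10).

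The dehydrins of the RAB16 cluster, proteins made under abscisic acid and drying, were lower. RAB16B had 17, 15.8 and 14.8 RPKM in the complemented line, 3.17, 4.27 and 4.57 RPKM in EM1084, and 248, 254 and 205 RPKM in wild type. Its complemented level was 14.8-fold below wild type (log2 fold change -3.81, SE 0.13, limma adjusted p = 7e-11) and above EM1084. RAB16C was 13.0-fold lower, with 4.32, 5.05 and 5.10 RPKM in the complemented line and 63.1, 71.7 and 54 RPKM in wild type (-3.45, limma adjusted p = 1.6e-10). RAB16A had 164, 186 and 163 RPKM in the complemented line and 451, 461 and 375 RPKM in wild type (-1.32, limma adjusted p = 6e-08). EMP1, a late embryogenesis abundant protein, had 144, 117 and 125 RPKM in the complemented line, 86.6, 80.2 and 94.7 RPKM in EM1084, and 510, 486 and 503 RPKM in wild type (-1.95, limma adjusted p = 1.4e-09). These 4 loci were lower in EM1084 as well, and their complemented libraries all lay below wild type, as at 8.17% of all loci. The part of embryo or aleurone amount in the storage, sugar and starch results was not tested. Green tissue markers were near 0, with sums of 4.10 to 6.87 RPKM in the complemented line, 4.91 to 6.01 RPKM in EM1084 and 3.57 to 4.24 RPKM in wild type over 7 loci, of which 1 was tested and 0 were called.

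Heat shock proteins were mixed. Of 17 tested, 12 were higher and 2 lower as deposited, where 74.2% and 8.06% of all loci were. After scaling 5 were higher and 8 lower, against 31.3% and 27.4% of all loci. The medians of 0.72 and -0.21 compare with 0.79 and 0.09 over all loci, so the turn with scaling is shared with the whole table. The list took 0.320% ± 0.0057 of reads in listed loci in the complemented line and 0.344% ± 0.018 in wild type (exact permutation p = 0.1, n = 3 each). The small heat shock protein HSP16.9A had 190, 259 and 190 RPKM in the complemented line, 152, 149 and 179 RPKM in EM1084, and 17.5, 19.6 and 19.9 RPKM in wild type. It was 11.2-fold above wild type (log2 fold change 3.41, SE 0.12, limma adjusted p = 1.4e-10; 2.47 after scaling, limma adjusted p = 2.2e-08). Another small heat shock locus, LOC_Os03g16020, had 18.1, 16 and 17.1 RPKM in the complemented line, 9.07, 8.79 and 11 RPKM in EM1084, and 2.65, 3.02 and 1.49 RPKM in wild type (2.44, limma adjusted p = 3.5e-08). HSP101, a chaperone that dissolves aggregates, was 3.30-fold higher, with 10.8, 11.1 and 10.9 RPKM in the complemented line and 3.19, 3.25 and 3.50 RPKM in wild type (1.47, limma adjusted p = 1.6e-07). The abundant Hsp70 locus LOC_Os11g47760 was lower, with 783, 756 and 790 RPKM in the complemented line and 1052, 1096 and 963 RPKM in wild type (-0.42, limma adjusted p = 0.00012).

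Gibberellin genes gave 5 higher and 0 lower of 5 tested as deposited, where 74.2% of all loci were higher, and 3 higher and 0 lower after scaling, where 31.3% of all loci were higher and 27.4% lower. The receptor GID1 had 22.1, 20.6 and 20.8 RPKM in the complemented line, 21.8, 25.3 and 24.7 RPKM in EM1084, and 7.42, 6.91 and 8.49 RPKM in wild type (1.37, limma adjusted p = 1.2e-07). KS1, a synthase early in the gibberellin pathway, was higher by 1.52 on the log2 scale (limma adjusted p = 6.1e-07), with 6.08, 6.06 and 7.81 RPKM in the complemented line and 1.52, 1.81 and 1.66 RPKM in wild type. Every complemented library of both genes lay above wild type, as at 73.1% of all loci. GA2ox3, which inactivates gibberellin, had 6.90, 4.27 and 2.75 RPKM in the complemented line and 0.433, 0.37 and 0.395 RPKM in wild type. It entered through the complemented line alone, so it had to differ. It is 1 of the 5 as deposited and 1 of the 3 after scaling. Of the 6 subunit genes of Polycomb complex PRC2, a silencer of chromatin, 4 were higher and 0 lower as deposited, where 74.2% and 8.06% of all loci were. After scaling 1 was higher and 2 lower, against 31.3% and 27.4% of all loci. The medians of 0.96 and 0.10 were near those of all loci (0.79 and 0.09). FIE2 was higher under both, with 18.4, 20.6 and 21.7 RPKM in the complemented line, 22.8, 26.3 and 21.8 RPKM in EM1084, and 5.69, 6.07 and 4.48 RPKM in wild type (1.73, limma adjusted p = 5.4e-08; 0.87 after scaling, limma adjusted p = 3.2e-05). Among 6 genes often used as controls, 5 were higher and 0 lower as deposited, where 74.2% and 8.06% of all loci were. After scaling 1 was higher and 2 lower, against 31.3% and 27.4% of all loci. Their medians of 0.89 and -0.06 were also near those of all loci. GAPDH had 59.9, 70.8 and 81.7 RPKM in the complemented line and 18.9, 18.9 and 19.4 RPKM in wild type (1.83, limma adjusted p = 9e-09; 0.90 after scaling, limma adjusted p = 4.1e-06). Both tested alpha-amylase genes were at or under 4.71 RPKM in the complemented line, and neither was called after scaling.

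A level near wild type and far from EM1084 was seen in a pair of neighbouring ASR genes (abscisic acid, stress and ripening proteins). LOC_Os01g72900 had 1.75, 2.66 and 1.65 RPKM in the complemented line, 313, 385 and 375 RPKM in EM1084, and 0.996, 1.89 and 0 RPKM in wild type. LOC_Os01g72910 had 2.15, 1.78 and 1.23 RPKM in the complemented line, 285, 366 and 288 RPKM in EM1084, and 0.141, 1.94 and 0 RPKM in wild type. Complemented and wild type libraries overlapped for both genes, and EM1084 stood far apart. Their calls against wild type (0.73, limma adjusted p = 0.044, and 0.85, limma adjusted p = 0.036) were lost after scaling (limma adjusted p = 0.54 and 0.32) and rest on 0 to 28 reads a library. As deposited, the call of LOC_Os01g72900 was lost without any complemented library or without wild type replicate 1 or 3 (0.31 to 0.82). That of LOC_Os01g72910 was lost without complemented replicate 1 or 2 or wild type replicate 1 or 3 (0.56 to 0.82). The other ASR locus tested, LOC_Os11g06720, was not called as deposited. After scaling it was called lower than wild type, on the side of EM1084 (-1.47 to -0.95 with 1 library left out).

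Some loci were read in 1 line and nearly silent in the other. The rule, set after the values were seen, was at least 5 RPKM in all 3 libraries of one line and at most 3 reads over the 3 libraries of the other together. By it, 38 loci were read in the complemented line alone and 9 in wild type alone. Of the 38, 25 had 0 reads in wild type, 23 had at least 5 RPKM in all EM1084 libraries and 4 had at most 3 reads over the EM1084 libraries together. Of the 9, 5 had 0 reads in the complemented line and 8 had at most 3 reads over the EM1084 libraries together. The 38 loci lay on all 12 chromosomes. LOC_Os07g33997 (chromosome 7, 20310035 to 20312111) had 328, 352 and 394 RPKM in the complemented line, 627, 611 and 610 RPKM in EM1084, and 0 reads in every wild type library. It was at least 1940-fold higher than a wild type floor of 3 reads over the 3 libraries together. LOC_Os09g32169 (chromosome 9, 19195347 to 19196161) had 194, 176 and 182 RPKM in the complemented line, 132, 148 and 132 RPKM in EM1084, and 0 reads in wild type, at least 957-fold higher than the same floor. In the other direction, LOC_Os12g12140 (chromosome 12, 6657439 to 6657930) had 0, 0 and 2 reads in the complemented line, 0 reads in EM1084, and 134, 122 and 132 RPKM in wild type. LOC_Os08g14350 had 0 reads in the complemented line and in EM1084, and 56.8, 50.9 and 47.7 RPKM in wild type, at least 657-fold lower than wild type with a complemented floor of 3 reads over its 3 libraries together. For each of these 4 loci the complemented line and EM1084 stood together, on or off, apart from wild type. The files name none of them.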

How the data were processed

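The deposited table holds RPKM per locus and library, which the authors computed, per the file headers. No source used here names the aligner, counter, genome build or annotation, and coordinates are the table's. RPKM steps gave whole reads for 100.0% of values (tolerance 0.001). Loci with at least 1 RPKM in at least 3 of 6 libraries were fitted as log2(RPKM + 1), pseudocount 1, by limma 3.58.1 (trend, robust) in R 4.3.3. The fit held all 9 libraries, as deposited and after median-of-ratios scaling, two-sided, Benjamini-Hochberg over 13751 loci. The fit was also run on simulated data, in which few loci differed and the table as a whole did not shift. That run cannot bear on the choice of scaling. The labels call the libraries biological repeats only by number, so p-values measure the spread between these samples. Reads are not independent molecules, so depths and floors cover counting error only. Members and lists (18 lists, 190 loci, 180 in the table, 155 tested) were chosen with earlier results of these data known. Gene names come from general knowledge of rice; 56 of 116 occur in the RefSeq table, which shares 0 locus identifiers. Named were OsTudor-SN, per list the 2 called loci lowest in adjusted p and the 1 highest in mean, and outside the lists the 2 largest rises and 2 largest falls; other genes were chosen after their values were seen, and some chosen ones are not printed. Loci of the lists without a value were not analysed here.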

Additional observations from a re-analysis of the deposited data

How the results depend on the processing

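Gene directions and calls were recomputed with a pseudocount of 0.1, other filters, library sizes outside the storage lists, limma-voom on whole reads, the 6 libraries alone, a replicate block, each library left out and, chosen after seeing the data, reads thinned to the shallowest library. A filter of 5 RPKM left fewer loci, with 6258 called and 5460 higher as deposited, and 5027 called and 2338 higher after median-of-ratios scaling. With library sizes outside the storage lists, which shift abundant loci by -0.34, 8226 loci were higher and 1712 lower. Small deposited differences turned for GluA1 (-0.05), alpha-globulin (-0.26), AGPL1 (-0.05), AGPS2 (-0.22), EMF2b (-0.11) and PDIL1-1 (-0.14). The same sizes ended the deposited calls of SUS4 (0.05), GBSSI (0.13), LOC_Os01g72900 (0.57) and LOC_Os01g72910 (0.73), and gave calls for CRT (-0.46), alpha-globulin and the ASR locus LOC_Os11g06720 (-0.77). After thinning, 9729 loci were higher and 1026 lower as deposited, and VPE1 moved to -0.01 after scaling. With limma-voom on whole reads, 7385 loci were called after scaling. That fit ended the scaled call of GA2ox3 (2.35) and gave one for bZIP60 (-0.27). Repeat numbers share only a number: deviations of same-numbered libraries correlated at -0.0175, -0.0123 and 0.017, and the replicate block gave 11257 calls as deposited and 7928 after scaling, with OsTudor-SN at 1.98 and 1.03. It ended the PPDKB call after scaling (0.14), gave one for LOC_Os11g06720 as deposited (-0.54) and changed no other call of the named genes. The block gave 9976 loci on the side of EM1084, 363 opposite and 918 not called in EM1084 as deposited, and 5590, 355 and 1983 after scaling. Leaving out 1 library gave 10682 to 11221 calls as deposited and 7152 to 8270 after scaling. After scaling, these fits turned 4 small differences, which ranged from -0.04 to 0.06 for VPE1, -0.03 to 0.04 for BEI, -0.28 to 0.74 for LOC_Os01g72900 and -0.04 to 0.32 for bZIP39, the last 2 without wild type replicate 3. The calls of PPDKB after scaling, and of PDIL1-1, AGPL1, LOC_Os01g72900 and LOC_Os01g72910 as deposited, were lost in 1 or more of these fits. Others appeared. As deposited these were AGPS2 (0.17) and EMF2b (0.31) without complemented replicate 1, and LOC_Os11g06720 (-0.86) without complemented replicate 2. After scaling, ERO1 was called without complemented replicate 1 (-0.23) or wild type replicate 2 (-0.22), and LOC_Os01g72910 without wild type replicate 2 (1.16). The alpha-amylase gene RAmy3B was called after scaling without wild type replicate 1 (0.54). Without wild type replicate 3, scaled calls appeared for bZIP60 (-0.32), alpha-amylase RAmy3E (0.69), Polycomb gene CLF (0.32) and green tissue locus LOC_Os09g17740 (-0.52). Depth limits values under 1 RPKM most in wild type replicate 3.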
